A study of Mus with 8 samples.

Results

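The 35 genes described here belong to glycolysis and to the transcriptional response to low oxygen, and their mRNAs were measured in whole subcutaneous tumours of the mouse colon cancer line MC38, which had been transplanted into hosts of 2 genotypes. The genes were taken by name from a list of both processes, and a probe was assigned to a gene when its accession was a RefSeq transcript of that gene. All 35 were found on the array, out of 31281 genes and unnamed transcripts tested, and the probe of each was well above background in 8 of 8 tumours. Of the 35, 20 belong to glycolysis (2 glucose transporters, 15 enzymes and 3 regulators of flux), 13 are other targets of the hypoxia-inducible factors (HIF), and 2 encode HIF alpha subunits.

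Of the 8 tumours, 4 grew in wild-type mice, which the labels call B6 (WT), and 4 in Ext1 flox/flox; S100a4-Cre mice, called Ext1S100a4Cre. Ext1 encodes a glycosyltransferase that lengthens heparan sulfate, a sulfated polysaccharide carried by proteoglycans on cells and in the matrix. The Cre was driven by S100a4, which is expressed in fibroblasts and also in some immune cells, and the transplanted MC38 cells carried no such deletion by design in either host. The labels state neither the sex nor the age of the mice, nor whether the wild-type mice carried the floxed allele. Tumours were collected 25 to 30 days after transplantation and RNA was taken from the whole tumour, so cancer cells and host cells were read together.

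Glycolysis splits glucose to pyruvate in the cytosol, and lactate dehydrogenase regenerates the cofactor it needs by turning pyruvate into lactate. When oxygen is scarce, prolyl hydroxylases of the Egln family no longer mark the HIF alpha subunits for degradation, and HIF then induces most genes of glycolysis together with genes of mitophagy, vessel tone and growth restraint. HIF alpha is controlled mainly at the protein level, so its mRNA need not follow its targets. Many solid tumours express these genes strongly, both in poorly perfused regions and in cancer cells that ferment glucose with oxygen present.

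Array brightness, expressed as the 75th percentile of spot intensity, ran from 846.9 to 1265, with tumours 1 and 4 of the Ext1S100a4Cre host lowest (854.8 and 846.9). All levels below are log2 intensities relative to that percentile of the same array. Ext1 mRNA lay between -0.55 and 0.24 in WT host tumours and between -0.62 and -0.27 in Ext1S100a4Cre host tumours, and whether its probe lies in the deleted part was not established. The 5 epithelial markers examined (Epcam, Krt8, Krt18, Krt19 and Cdh1) were well above background in all 8 tumours. The 4 Y-linked genes examined were not well above background in Ext1S100a4Cre host tumours 1 and 4, and were so in the other 6 tumours. The 9 of 10 skeletal muscle markers that were measured stood 3.19 and 4.04 log2 units above the mean of the 8 tumours in Ext1S100a4Cre host tumours 2 and 3, and between -1.94 and -0.16 in the other 6. The first principal component over all genes, with 49.8% of the variance, had WT host tumour 3 at one end and Ext1S100a4Cre host tumour 1 at the other.

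The first comparison asked whether these genes differed between tumours of the 2 hosts. None of the 35 passed limma's test at an adjusted p of 0.05, where the background over all genes was 0%. The smallest adjusted p among the 35 was 0.747. At unadjusted p under 0.05 there were 2 members, Ddit4 with a higher mean in the Ext1S100a4Cre host and Angptl4 with a lower one, against 6.55% of all genes (4.39% higher and 2.16% lower). Means were higher in the Ext1S100a4Cre host for 26 of the 35 members, against 58.1% of all genes. The median difference (Ext1S100a4Cre host minus WT host) was 0.18 log2 units over the 20 glycolysis genes and 0.26 over the 13 other HIF targets, against 0.050 over all genes tested. Glycolysis genes had 16 higher and 4 lower means, and the other targets 10 higher and 3 lower. These splits moved with the scaling of the arrays, to 12 and 8 glycolysis genes under quantile scaling (median 0.040), and without scaling to 7 and 13 glycolysis genes (median -0.071) and 7 and 6 other targets (median 0.013), where the median of all genes was -0.20. The sign of these medians also rested on single tumours. Without WT host tumour 3 the glycolysis median was -0.0057, with 10 of 20 means higher, and that of the other targets -0.050, with 6 of 13 higher. Without Ext1S100a4Cre host tumour 1 they were -0.027 and 0.0021, with 9 and 7 means higher. Over all 8 omissions of a single tumour the medians ran from -0.027 to 0.35 and from -0.050 to 0.42, the highest without Ext1S100a4Cre host tumours 2 and 3 respectively. Ddit4 no longer had unadjusted p under 0.05 without WT host tumour 2 (0.0611 in limma), WT host tumour 3 (0.0626) or Ext1S100a4Cre host tumour 1 (0.0655). In whole tumours, fewer cells of a type and less RNA per cell cannot be told apart.

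**Figure D1:**
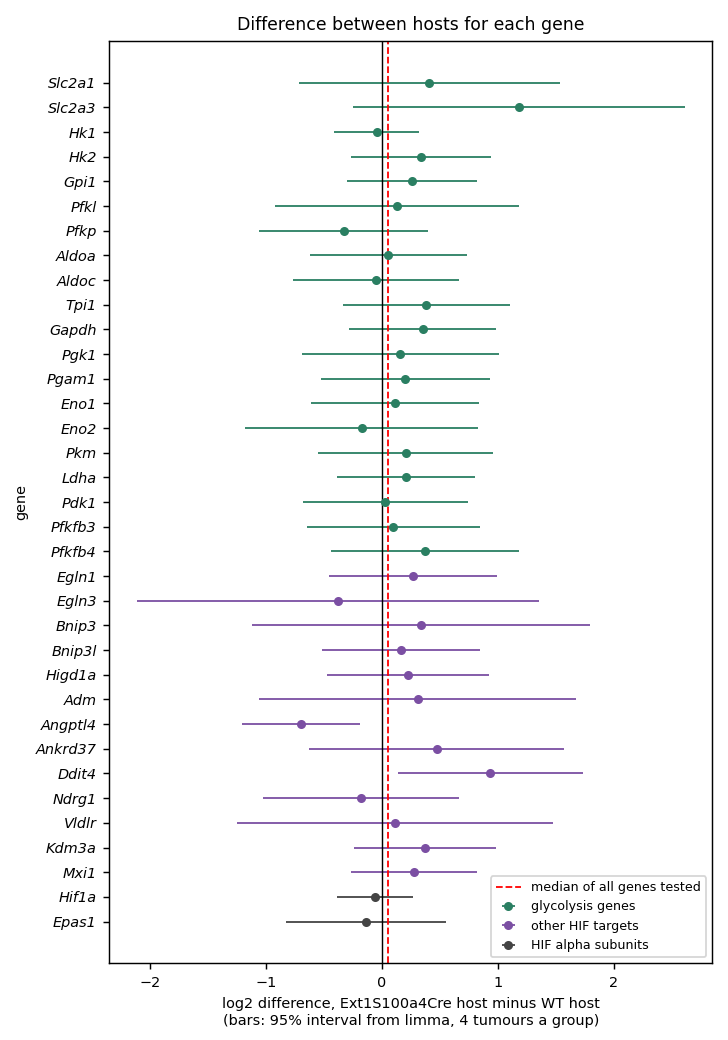
Log2 difference between hosts (Ext1S100a4Cre host minus WT host, horizontal axis) for each of the 35 genes (vertical axis), with 95% intervals from limma, 4 tumours a group. Only the intervals of Ddit4 (0.14 to 1.73) and Angptl4 (-1.21 to -0.19) leave out 0, and the dashed line marks the median of all genes, 0.050.

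Slc2a1 and Slc2a3 encode GLUT1 and GLUT3, the carriers through which most cells take up glucose. Slc2a3 measured 1.64, 1.37, -0.49 and 0.44 in WT host tumours 1 to 4 and 2.92, 1.22, 0.84 and 2.70 in Ext1S100a4Cre host tumours 1 to 4. Tumours 1 and 4 of the Ext1S100a4Cre host were above every WT host tumour, while its tumours 2 and 3 lay inside the WT range. The difference of 1.18 log2 units (SE 0.62, 95% interval -0.25 to 2.61) was the largest of the 35 and did not pass (limma adjusted p = 0.747). A second Slc2a3 probe, well above background on 7 arrays, gave 1.97. In WT host tumour 3 that probe read -8.62, and in the rest of the WT host between -6.40 and -4.44. Slc2a1 measured 4.30, 4.10, 2.58 and 4.74 in the WT host and 4.97, 4.10, 3.62 and 4.67 in the Ext1S100a4Cre host. The groups overlapped, WT host tumour 3 was lowest, and the difference was 0.41 (SE 0.49, adjusted p = 0.826). Slc2a1 spanned a 5.25-fold range over the 8 tumours.

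The 15 glycolytic enzymes differed by -0.33 to 0.38 log2 units, with 11 higher and 4 lower means, a median of 0.16 and none at unadjusted p under 0.05. Among the enzymes that prime glucose, Hk2, the inducible hexokinase, was at 1.32 ± 0.27 in the WT host and 1.65 ± 0.49 in the Ext1S100a4Cre host (SD, n = 4 each). Hk1, the hexokinase present in most tissues, was at 1.99 ± 0.14 and 1.95 ± 0.25 (SD, n = 4 each), and lay between 1.65 and 2.24 in all 8 tumours. Gpi1, which converts glucose 6-phosphate to fructose 6-phosphate, differed by 0.26 (SE 0.24). The phosphofructokinases, which catalyse the committed step, had differences of opposite sign, 0.13 (SE 0.46) for Pfkl and -0.33 (SE 0.32) for Pfkp. Pfkp, the platelet type, measured 2.36, 2.05, 2.00 and 2.69 in the WT host and 2.57, 1.15, 1.78 and 2.28 in the Ext1S100a4Cre host. Its tumours 2 and 3 of the Ext1S100a4Cre host were below all others.

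In the later steps of the pathway, where the carbon skeleton is already split, the same few tumours stood at the ends. Gapdh, the dehydrogenase that yields the first reduced cofactor, measured 7.27, 7.13, 6.56 and 7.32 in the WT host and 7.94, 7.03, 6.98 and 7.73 in the Ext1S100a4Cre host. Ext1S100a4Cre host tumours 1 and 4 were highest, WT host tumour 3 lowest, and the difference was 0.35 (SE 0.28, adjusted p = 0.764). All 6 Gapdh probes had a higher mean in the Ext1S100a4Cre host, with differences from 0.20 to 0.35. Ldha, which makes lactate from pyruvate, measured 7.33, 7.16, 6.58 and 7.32, then 7.72, 6.86, 7.02 and 7.62. WT host tumour 3 was again lowest, Ext1S100a4Cre host tumours 1 and 4 highest, and the difference was 0.21 (SE 0.26). Pgk1, the first step that yields ATP, measured 7.29, 7.01, 6.34 and 7.18, then 7.81, 6.39, 6.62 and 7.62, with a difference of 0.16 (SE 0.37). Tpi1, which interconverts the triose phosphates, had the largest difference among the enzymes, 0.38 (SE 0.31). Pgam1, Eno1 and Pkm, which carry 3-phosphoglycerate on to pyruvate, differed by 0.20, 0.11 and 0.20, and the aldolases Aldoa and Aldoc by 0.054 and -0.053. Several of these genes have near-identical processed copies in the mouse genome, which array probes may not separate.

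Eno2, the neuronal enolase, measured -2.86, -3.51, -1.88 and -3.68 in the WT host and -3.54, -2.67, -3.73 and -2.70 in the Ext1S100a4Cre host. WT host tumour 3, lowest for Eno1, was highest for Eno2, and the groups overlapped with a difference of -0.18 (SE 0.44).

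Of the 3 regulators of flux, Pdk1, which keeps pyruvate out of the mitochondria by phosphorylating pyruvate dehydrogenase, was at 2.85 ± 0.62 and 2.88 ± 0.28 (SD, n = 4 each). The difference was 0.028 (SE 0.31). Pfkfb3 and Pfkfb4 make and remove fructose 2,6-bisphosphate, the strongest activator of phosphofructokinase. Pfkfb3 differed by 0.096 (SE 0.32). Pfkfb4 measured -0.71, -0.22, 0.65 and -1.05 in the WT host and -0.13, 0.43, -0.13 and -0.021 in the Ext1S100a4Cre host, with a difference of 0.37 (SE 0.35). Its highest tumour was WT host tumour 3, in contrast to most of the list, and without that tumour its unadjusted p was under 0.05 while its adjusted p did not pass.

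The 2 members with unadjusted p under 0.05 were both HIF targets with other inducers, and they ran in opposite directions. Ddit4 encodes REDD1, which restrains mTORC1 under hypoxia, glucocorticoids and other stress. It measured 4.44, 4.02, 3.42 and 4.78 in the WT host and 5.81, 4.88, 4.67 and 5.04 in the Ext1S100a4Cre host. Only WT host tumour 4 reached into the range of the other group, where it exceeded tumour 3. The mean was 4.16 ± 0.59 in the WT host and 5.10 ± 0.50 in the Ext1S100a4Cre host (SD, n = 4 each), a difference of 0.93 log2 units or 1.91-fold (SE 0.35). It did not pass over all genes (limma adjusted p = 0.747, unadjusted p = 0.027, exact two-sided permutation p = 0.0571). The difference was 1.11 in slide row 1 and 0.76 in slide row 2. It was 0.61 (SE 0.38, unadjusted p = 0.164 in limma) without Ext1S100a4Cre host tumours 1 and 4, and 0.45 (SE 0.23, unadjusted p = 0.0966) without WT host tumour 3 and Ext1S100a4Cre host tumour 1.

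Angptl4 encodes a secreted inhibitor of lipoprotein lipase that HIF and the PPAR receptors induce. It measured 2.85, 2.83, 3.15 and 2.42 in the WT host and 1.68, 2.42, 1.99 and 2.39 in the Ext1S100a4Cre host. No Ext1S100a4Cre host tumour exceeded a WT host tumour, although the closest pair, WT host tumour 4 and Ext1S100a4Cre host tumour 2, both round to 2.42. Angptl4 was the only one of the 35 without overlap between the groups, against 4.52% of all genes (3.38% higher and 1.14% lower). The mean was 2.82 ± 0.30 in the WT host and 2.12 ± 0.35 in the Ext1S100a4Cre host (SD, n = 4 each), a difference of -0.70 (SE 0.22). It did not pass either (limma adjusted p = 0.747, unadjusted p = 0.0135). The exact two-sided permutation p was 0.0286, the smallest that 4 against 4 tumours can give. The difference was -0.79 in slide row 1 and -0.60 in slide row 2, -0.61 without Ext1S100a4Cre host tumours 1 and 4 and -0.78 without its tumours 2 and 3. Without WT host tumour 3 and Ext1S100a4Cre host tumour 1 it was -0.44 (SE 0.20, limma unadjusted p = 0.0647). Angptl4 is also made by adipocytes, of whose 6 listed markers 5 were measured. Their average was 2.32 above the 8-tumour mean in WT host tumour 3, and 1.19 and 3.22 in Ext1S100a4Cre host tumours 2 and 3. These were the highest averages, but Lep alone was lowest of the 8 in WT host tumour 3. Adipoq, which defines the cell type, was well above background in 4 of 8 tumours. The part of adipocytes in the Angptl4 result was not tested.

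**Figure D2:**
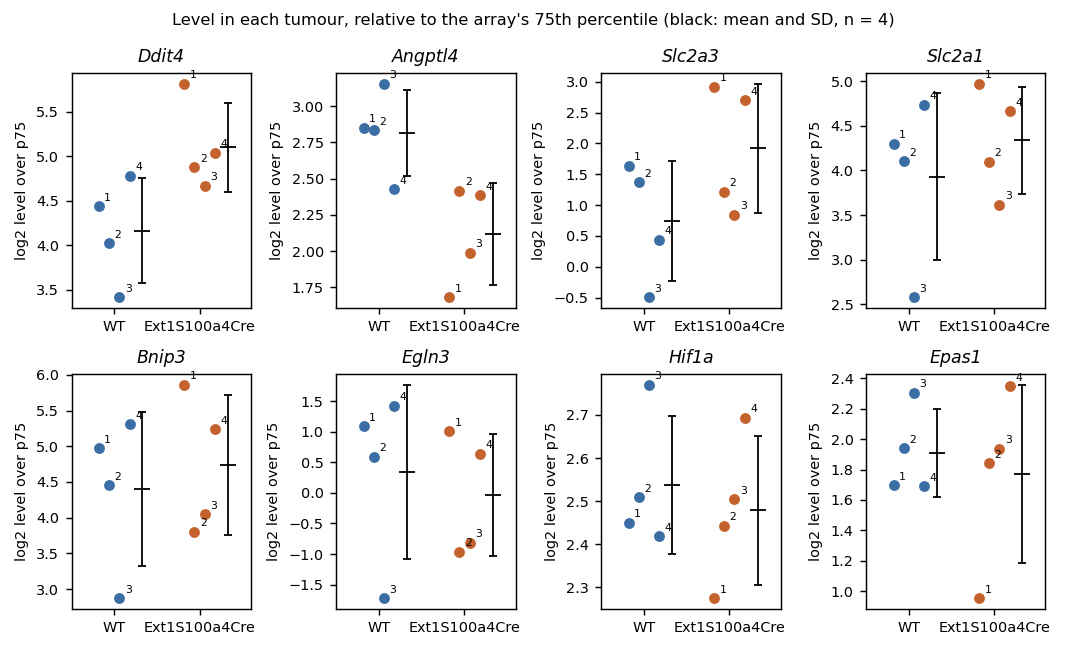
Level of 8 genes in each tumour (vertical axis, log2 intensity relative to the array's 75th percentile) by host, with tumour numbers beside the points and mean and SD in black (n = 4). Ddit4 and Angptl4 show the clearest separation of hosts, and WT host tumour 3 is lowest for Slc2a1, Slc2a3, Bnip3 and Egln3.

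Among the oxygen sensors, Egln1 (PHD2), the main prolyl hydroxylase that marks HIF alpha, differed by 0.26 (SE 0.31). Egln3 (PHD3), itself a strong HIF target, measured 1.09, 0.59, -1.72 and 1.43 in the WT host and 1.01, -0.96, -0.82 and 0.64 in the Ext1S100a4Cre host. WT host tumour 3 was lowest, Ext1S100a4Cre host tumours 2 and 3 came next, and the difference of -0.38 (SE 0.75, 95% interval -2.11 to 1.36) had the widest interval of the 35. Its range over the 8 tumours was 8.85-fold.

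Of the mitochondrial targets, Bnip3, a mitophagy receptor of the outer mitochondrial membrane, measured 4.97, 4.46, 2.87 and 5.31 in the WT host and 5.86, 3.81, 4.05 and 5.24 in the Ext1S100a4Cre host. The groups overlapped and differed by 0.34 (SE 0.63, adjusted p = 0.892), while the tumours spanned a 7.92-fold range. Bnip3l, a related receptor that also clears mitochondria from maturing red cells, differed by 0.17 (SE 0.30), and Higd1a, a small protein of the respiratory chain, by 0.22 (SE 0.30). Of 7 erythrocyte markers 5 were measured. Their average was highest in Ext1S100a4Cre host tumours 2 and 1 (2.92 and 1.24 above the mean of the 8 tumours). Bnip3l was highest in tumour 1 of that host (4.17) and was 3.68 in its tumour 2. WT host tumour 4 came next to the highest for Bnip3l (4.05) and had the lowest erythrocyte average (-1.63). The part of red cells in the level of Bnip3l was not tested.

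The other targets (Adm, Ankrd37, Kdm3a, Mxi1, Vldlr and Ndrg1) had differences from -0.18 to 0.47. Adm, which encodes the vasodilator adrenomedullin, measured 0.98, 0.57, -0.99 and 1.77 in the WT host and 1.75, 0.36, 0.26 and 1.18 in the Ext1S100a4Cre host, a difference of 0.31 (SE 0.59). Ankrd37, an ankyrin-repeat protein induced by HIF, was at 1.47 ± 0.69 and 1.94 ± 0.84 (SD, n = 4 each). Kdm3a, a histone H3 lysine demethylase that needs oxygen, differed by 0.37 (SE 0.27), and Mxi1, an antagonist of Myc, by 0.27 (SE 0.24). Vldlr, a lipoprotein receptor, differed by 0.11 (SE 0.59), but a second probe of it gave -0.49. Ndrg1, a stress-responsive growth suppressor, measured 2.80, 2.51, 2.61 and 3.98 in the WT host and 3.45, 2.47, 2.53 and 2.73 in the Ext1S100a4Cre host. WT host tumour 4 stood above the rest for Ndrg1, whose difference was -0.18 (SE 0.37).

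The HIF alpha subunits are the factors whose targets are listed above. Hif1a, the subunit present in most cells, measured 2.45, 2.51, 2.77 and 2.42 in the WT host and 2.27, 2.44, 2.50 and 2.69 in the Ext1S100a4Cre host, a 1.41-fold range with a difference of -0.058 (SE 0.14, 95% interval -0.38 to 0.27). Epas1, which encodes HIF-2 alpha and is prominent in endothelial cells and macrophages, measured 1.70, 1.94, 2.31 and 1.69, then 0.95, 1.84, 1.94 and 2.35, a difference of -0.14 (SE 0.30). Both were lowest in Ext1S100a4Cre host tumour 1, in which 22 of the 35 members were highest. In that tumour the 7 endothelial markers averaged -1.45 relative to their 8-tumour means, with the other 7 tumours between -0.040 and 0.67. There the 9 macrophage markers averaged -2.98. Epas1 was highest in Ext1S100a4Cre host tumour 4 (2.35), where the endothelial markers averaged -0.040 and the macrophage markers -1.01. The part of these cells in the level of Epas1 was not tested.

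The difference between hosts was larger than the pooled SD within a host for 3 of the 35 members, Slc2a3 (1.18 against an SD of 1.01), Ddit4 (0.93 against 0.55) and Angptl4 (-0.70 against 0.33). The share of all genes past that mark was not computed, so this count only describes the members. The median SD within a host was 0.49 log2 units over the 35 members and 0.30 over all genes tested. WT host tumour 3 was the lowest of the 8 for 26 of the 35 members, against 31.7% of all genes, and Ext1S100a4Cre host tumour 1 the highest for 22, against 23.5%. Both held for 21 members, against 13.1% of all genes, and the opposite for 2, Angptl4 and Hif1a, against 9.45%. Within the Ext1S100a4Cre host, tumours 1 and 4 were both above tumours 2 and 3 for 27 members, against 36.2% of all genes. The exceptions were Eno2, Pdk1, Pfkfb4, Bnip3l, Angptl4, Mxi1, Hif1a and Epas1. From WT host tumour 3 to Ext1S100a4Cre host tumour 1, Slc2a3 showed the largest step of the 35, from -0.49 to 2.92. Bnip3 was 7.92-fold higher, Adm 6.69-fold, Egln3 6.63-fold and Ddit4 5.27-fold. Enzymes of the later steps such as Ldha (2.20-fold), Pgk1 (2.77-fold) and Pkm (2.82-fold) overlapped with other targets such as Ndrg1 (1.79-fold), Bnip3l (2.50-fold) and Egln1 (2.70-fold). These are 2 single tumours, and the values describe them and not the hosts.

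**Figure D3:**
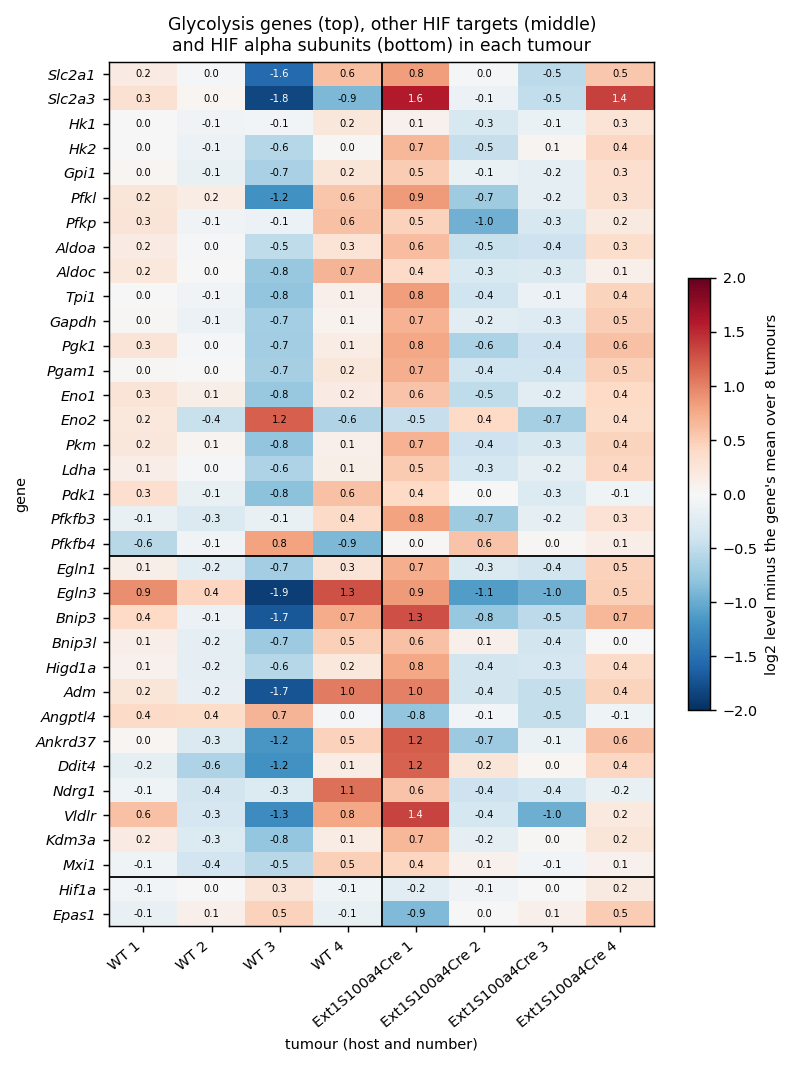
Log2 level of each gene (rows) in each tumour (columns) minus the gene's mean over the 8 tumours, with glycolysis genes at the top, other HIF targets in the middle and HIF alpha subunits at the bottom. The column of WT host tumour 3 is below the mean for most rows and that of Ext1S100a4Cre host tumour 1 above it, while Eno2, Pfkfb4, Angptl4, Hif1a and Epas1 depart from this.

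Averaged over the 20 glycolysis genes, the tumours stood at 0.11, -0.066, -0.56 and 0.13 in the WT host and at 0.58, -0.31, -0.28 and 0.39 in the Ext1S100a4Cre host, relative to the mean of the 8. Over the 13 other targets they stood at 0.21, -0.18, -0.91 and 0.54, then 0.76, -0.32, -0.38 and 0.29. Both sets had the same highest and the same lowest tumour. The macrophage, fibroblast and endothelial markers had the opposite order in that pair of tumours. The 9 macrophage markers, each well above background in every tumour, averaged 2.59 in WT host tumour 3, -2.98 in tumour 1 of the Ext1S100a4Cre host, and between -1.01 and 0.73 in the other 6. The 9 fibroblast markers were at 1.83 and -3.05, and between -0.68 and 0.87 in the other 6. Other markers differed from this. Erythrocyte markers had the order of the glycolysis genes in that pair, at -1.07 and 1.24, but not over all 8 tumours. Their average was highest in Ext1S100a4Cre host tumour 2 (2.92, glycolysis genes -0.31) and lowest in WT host tumour 4 (-1.63, glycolysis genes 0.13). Skeletal muscle markers were low in both tumours of the pair, at -1.94 and -1.19. The average of the 5 neutrophil markers measured was highest in WT host tumour 3, at 1.77, and was -0.050 in Ext1S100a4Cre host tumour 1. S100a8 and S100a9 were each highest in WT host tumour 3. Csf3r was highest in WT host tumour 1, Cxcr2 in Ext1S100a4Cre host tumour 2 and Retnlg in Ext1S100a4Cre host tumour 3. The averages of the 5 epithelial markers lay between -0.41 and 0.50, with the lowest in WT host tumour 3, as for the glycolysis genes. Epcam, Krt8 and Cdh1 were each lowest there, but Krt18 and Krt19 were lowest in Ext1S100a4Cre host tumour 4. Elsewhere the 2 sets differed. The epithelial average was highest in Ext1S100a4Cre host tumour 2 (0.50, glycolysis genes -0.31) and was -0.32 in its tumour 4 (glycolysis genes 0.39). How far the mix of cancer and host cells accounts for the levels of the glycolysis and hypoxia genes was not tested.

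**Figure D4:**
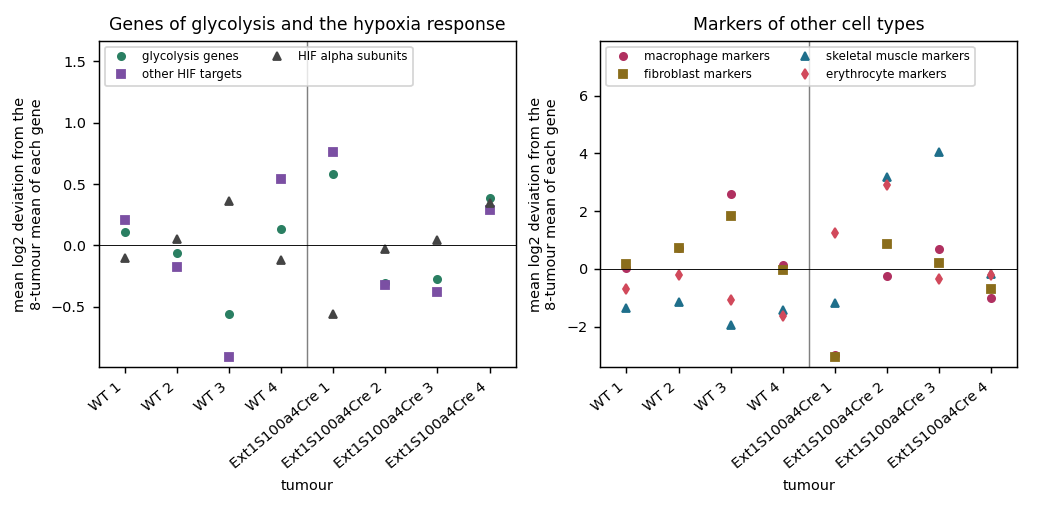
Mean log2 deviation from each gene's 8-tumour mean (vertical axis) in each tumour (horizontal axis), for the genes of glycolysis and the hypoxia response on the left and for markers of other cell types on the right. Glycolysis genes are at -0.56 and macrophage markers at 2.59 in the third WT column, against 0.58 and -2.98 in the first Ext1S100a4Cre column, and the panels have different vertical scales.

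The comparison between hosts was repeated without the tumours that stand apart. Without Ext1S100a4Cre host tumours 1 and 4, which had dim arrays and no Y-linked signal, the median difference of the glycolysis genes was -0.23 with 2 higher and 18 lower means, and that of the other targets -0.25 with 3 higher and 10 lower. In that comparison all tumours carried Y-linked signal. Without Ext1S100a4Cre host tumours 2 and 3, which carried the skeletal muscle signal, the medians were 0.59 and 0.69, with 19 of 20 and 12 of 13 means higher, and 9 members had unadjusted p under 0.05, against 17.1% of all genes in that fit. These were Slc2a3, Hk2, Tpi1, Gapdh, Pgk1, Pgam1, Higd1a, Ddit4 and, with a lower mean, Angptl4. Without the tumours at the ends of the first principal component, WT host 3 and Ext1S100a4Cre host 1, the medians were -0.19 and -0.22. The median of all genes in these 3 comparisons was 0.00038, 0.10 and 0.017, in the same order. No member passed the adjusted threshold in any of these 3 comparisons, where 11, 0 and 3 of all 31281 genes passed, in the order given. Without Ext1S100a4Cre host tumours 1 and 4 the members with unadjusted p under 0.05 were Pfkp and Angptl4, both lower, against 5.82% of all genes. Without WT host 3 and Ext1S100a4Cre host 1 they were Pfkfb4, higher, and Egln3, lower, against 5.51%. Ddit4 had a higher and Angptl4 a lower mean in the Ext1S100a4Cre host in all 3, with unadjusted p under 0.05 in 1 of them for Ddit4 and in 2 for Angptl4. Among the 4 Ext1S100a4Cre host tumours the presence of Y-linked signal, the high muscle signal and the brighter arrays coincided and cannot be told apart. The 75th percentile was 1017 and 1138 in tumours 2 and 3, against 854.8 and 846.9 in tumours 1 and 4. Y-linked signal was present in every WT host tumour, so with all 8 tumours it was unbalanced between the hosts.

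**Figure D5:**
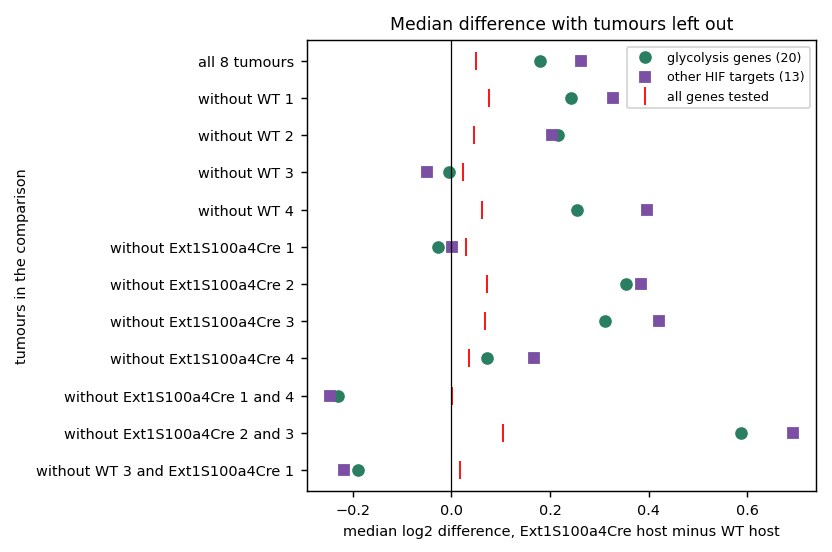
Median log2 difference between hosts (horizontal axis) over 20 glycolysis genes, 13 other HIF targets and all genes tested, with all 8 tumours and with the tumours named on the vertical axis left out. The medians are 0.18 and 0.26 with all tumours, -0.23 and -0.25 without Ext1S100a4Cre host tumours 1 and 4, and 0.59 and 0.69 without its tumours 2 and 3.

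Other genes of the same processes were read from lists that exclude the 35. Of 22 measured genes of glycolysis and its branches, 17 had higher and 5 lower means in the Ext1S100a4Cre host, and 2 had unadjusted p under 0.05, Eno3 and Ldhb. Of 36 further hypoxia genes, 17 had higher and 19 lower means, and 1 had unadjusted p under 0.05, Car9. The share over all genes was 6.55%. Vhl and Egln2, with differences of 0.22 and 0.30, were higher in every Ext1S100a4Cre host tumour than in any WT host tumour. Their limma unadjusted p was 0.0820 and 0.0671. Such a lack of overlap, in either direction, held for 4.52% of all genes. None of the listed genes passed the adjusted threshold. Ldhb, the lactate dehydrogenase subunit that favours pyruvate, measured 4.10, 3.95, 1.47 and 2.77 in the WT host and 4.56, 4.22, 4.20 and 4.42 in the Ext1S100a4Cre host, a difference of 1.27 (SE 0.54, limma adjusted p = 0.747). The Ext1S100a4Cre host tumours lay close together above all WT host tumours, of which tumours 3 and 4 were lowest. The difference was 0.36 in slide row 1 and 2.18 in slide row 2, and 0.74 without WT host tumour 3. Eno3, the muscle enolase, measured 1.87, 1.84, 0.80 and 1.25 in the WT host and 2.18, 1.87, 2.22 and 2.38 in the Ext1S100a4Cre host. It differed by 0.73 (SE 0.26) without overlap, although WT host tumour 1 and Ext1S100a4Cre host tumour 2 both round to 1.87. The Eno3 difference was 0.17 in slide row 1 and 1.28 in slide row 2, and 0.51 without WT host tumour 3. The part of skeletal muscle in Eno3 was not tested. The muscle isoforms Pfkm and Pgam2 differed by 0.16 (SE 0.45) and -0.066 (SE 1.08). Car9, a carbonic anhydrase that is a standard marker of hypoxia, measured -0.86, -1.07, -1.35 and 0.36 in the WT host and -1.12, -1.96, -1.90 and -1.95 in the Ext1S100a4Cre host, with a mean of -0.73 ± 0.76 against -1.73 ± 0.41 (SD, n = 4 each, 95% interval of the difference -1.89 to -0.12, limma adjusted p = 0.747). Without WT host tumour 4 the Car9 difference was -0.64. Vegfa, the main angiogenic HIF target, measured 0.87, 0.73, -0.018 and 1.63, then 2.33, -0.56, 0.024 and 1.76, a difference of 0.086 (SE 0.67). Vegfa, like the enzymes, was highest in Ext1S100a4Cre host tumour 1 and low in its tumours 2 and 3, while Car9 was highest in WT host tumour 4. The count of 3 genes with unadjusted p under 0.05 over both lists was 1 without Ext1S100a4Cre host tumour 2. It was also 1 without its tumour 3. The share over all genes in these fits was 6.91% and 9.48%, in that order.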

How the data were processed

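Per the file headers, the authors quantified the scans with Feature Extraction 10.7.3.1 from Agilent (9.1 in the submitters' processing notes). They deposited intensities on a linear scale, background-subtracted and detrended within each array per the file headers, beside other columns that are flags. Per the labels, 0.5 µg of RNA was labelled with Cy3, 1 array per tumour. The deposited series matrix holds the same intensities unscaled. Each processed intensity was divided here by its array's 75th percentile over non-control spots and expressed as log2. Spots with outlier flags were left out (53 to 132 per array), no spot was saturated, and repeated spots were averaged by probe. A probe was kept if 4 or more arrays had it well above background, and the brightest probe on average represented a gene. Probes were named by accession through a RefSeq table of assembly GRCm38.p6 (32994 of 56605 probes). Of the 35 members, 15 had several kept probes, whose differences had the same sign in 11.

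The test between hosts was limma 3.58.1 (R 4.3.3, two-sided, no covariates, Benjamini-Hochberg over 31281 genes, threshold 0.05), tested on simulated data. All adjusted and unadjusted p values and SEs are limma's unless named exact. Single genes also had an exact permutation test over 70 assignments. The number of arrays limits precision. Every member may be named, as may listed pathway genes with unadjusted p under 0.05 and Pfkm, Eno3, Pgam2, Vegfa and Car9. Vhl and Egln2 were named outside this rule, for their lack of overlap between hosts. The members and lists were chosen with earlier results of these data known. Alternatives covered normexp, scaling, filters, probes, blocks, variance and left-out tumours. Lists also covered endothelial, adipocyte, erythrocyte and Y-linked genes.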

Additional observations from a re-analysis of the deposited data

Results flagged for a closer look

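Of 74 groups of 4 values examined (each member and both set medians in each host), 2 had 1 tumour far from the other 3, and chance gives about 5% of groups. In both it was WT host tumour 3. Its Eno1 level was 5.97, with the other 3 WT host tumours between 6.84 and 6.98, and its Pkm level was 5.04, with the others between 5.90 and 6.07.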

How the results depend on the processing

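Under all 21 alternatives 0 members passed the adjusted threshold, and between 0 and 11 of all genes tested did so in each. Angptl4 had unadjusted p under 0.05 in 20 of the 21 and Ddit4 in 15. The unscaled series matrix moved the median difference of all genes from 0.050 to -0.20, left 1 member and 1 other pathway gene under 0.05, and turned Pfkl (-0.12), Aldoa (-0.20), Pgk1 (-0.094), Pgam1 (-0.048), Eno1 (-0.14), Pkm (-0.046), Ldha (-0.042), Pdk1 (-0.22), Pfkfb3 (-0.15), Bnip3l (-0.083), Higd1a (-0.026), Vldlr (-0.14), Pfkm (-0.093) and Vegfa (-0.16). In it glycolysis genes had 7 higher and 13 lower means, and 8.72% of all genes were under 0.05. Quantile scaling turned Aldoa (-0.10), Pgk1 (-0.015), Eno1 (-0.054) and Pdk1 (-0.053). The mean of a gene's probes turned Aldoc (0.00081), Vldlr (-0.19) and Vegfa (-0.095). It left 1 other pathway gene under 0.05, against 6.43% of all genes, and normexp gave 5, against 8.68%. Without Ext1S100a4Cre host tumours 1 and 4 there were 10 such genes over the lists of 22 and 36 measured genes, against 5.82% of all genes. Without tumours 2 and 3 there were 5, with 9 members, against 17.1% of all genes. These 3 left-out comparisons were chosen after seeing the data. Leaving out 1 tumour at a time put 4.68% to 9.48% of all genes under 0.05. With the cause not tested, it gave 1 to 3 members and 1 to 4 other pathway genes under 0.05. It gave these ranges of difference, which include both signs: Slc2a1 -0.042 to 0.68, Hk1 -0.14 to 0.053, Pfkl -0.25 to 0.39, Aldoa -0.14 to 0.21, Aldoc -0.32 to 0.16, Pgk1 -0.076 to 0.39, Pgam1 -0.0049 to 0.37, Eno1 -0.12 to 0.30, Eno2 -0.41 to 0.19, Pkm -0.027 to 0.38, Pdk1 -0.24 to 0.23, Pfkfb3 -0.16 to 0.35, Bnip3 -0.17 to 0.65, Bnip3l -0.050 to 0.35, Adm -0.22 to 0.70, Ndrg1 -0.40 to 0.15, Vldlr -0.32 to 0.45, Hif1a -0.13 to 0.020, Epas1 -0.33 to 0.13, Pfkm -0.12 to 0.42, Pgam2 -0.60 to 1.03 and Vegfa -0.39 to 0.57. Members that kept their sign but moved by over 1.5 times were Slc2a3 (0.77 to 1.54), Hk2 (0.17 to 0.54), Gpi1 (0.083 to 0.38), Pfkp (-0.54 to -0.066), Tpi1 (0.16 to 0.58), Gapdh (0.18 to 0.50), Ldha (0.037 to 0.36), Pfkfb4 (0.13 to 0.70), Egln1 (0.063 to 0.43), Egln3 (-1.07 to -0.019), Higd1a (0.0021 to 0.39), Ankrd37 (0.15 to 0.79), Kdm3a (0.17 to 0.49) and Mxi1 (0.14 to 0.48). Whether the labels' replicate numbers pair the tumours was not established. Correlations of same-numbered tumours were 0.493, -0.162, 0.591 and -0.245. The same-numbered tumour was the best partner for WT host tumours 1 and 3, and not for 2 and 4. With the replicate number as a block 0 members passed and 3 had unadjusted p under 0.05, Slc2a3 besides Ddit4 and Angptl4, against 10.4% of all genes.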
